A study of Rattus norvegicus with 8 samples.

Results

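The genes described here are 10 enzymes and transporters of arginine and creatine metabolism, Ass1, Asl, Arg1, Arg2, Gatm, Gamt, Otc, Odc1, Ckb and Slc6a8, out of 14217 genes measured in the testes of fetal rats. They were taken by gene symbol, and every probe set that the platform's gene table gives to 1 of these symbols alone was used, 13 probe sets of 31042. The 10 were chosen by their log2 signals on the exposed and unexposed arrays, the contrast described below, so their differences are given as a description without a test. Testes came from Fischer 344 male fetuses on gestational day 20. In 4 DBP samples the dams had been gavaged each day, starting on gestational day 12, with the plasticizer dibutyl phthalate (DBP) in corn oil, at 50 mg/kg. In 4 vehicle samples the dams had received corn oil alone. Tissue was collected 6 h after the last dose, and RNA of the whole testis was hybridised to 1 Affymetrix rat array per sample. Separate dams or litters are not stated in the labels, so the errors below describe the spread between these samples, which may be technical in part.

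Arginine is made from citrulline in a pair of steps. Argininosuccinate synthetase (Ass1) joins citrulline to aspartate, and argininosuccinate lyase (Asl) releases arginine and fumarate. Arginine is then used by arginases, which make ornithine and urea, by nitric oxide synthases, which return citrulline, and by glycine amidinotransferase (Gatm), which begins creatine synthesis. Ornithine decarboxylase (Odc1) turns ornithine into putrescine, the precursor of the polyamines. Liver runs these reactions as the urea cycle, whereas most other tissues, testis included, hold parts of the network.

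Values are log2 signals of the RMA method, so that a difference of 1 is a doubling of the signal. Array medians lay between 6.08 and 6.10 in DBP samples and between 6.11 and 6.13 in vehicle samples. Correlations across all probe sets lay between 0.992 and 0.997 among DBP arrays and at 0.998 for each pair of vehicle arrays. The spike-in controls, transcripts of bacterial genes mixed into each RNA, set DBP replicates 3 and 4 apart, with mean log2 signals of 4.84 and 4.79, against 7.17 and 6.68 on the other DBP arrays and 6.46 to 6.79 on the vehicle arrays. The same arrays also differed from the rest in genes known from spermatids, cells that a fetal testis does not yet have. Of 12 such genes, listed after this had been seen, 12 were highest on DBP replicate 4 and 12 were next highest on DBP replicate 3. Their signal over the vehicle mean had a median of 2.83 log2 units on DBP replicate 4 and 0.51 on DBP replicate 3, against 0.06 and -0.01 on DBP replicates 1 and 2. Prm1, which encodes a protamine, read 4.68, 4.47, 5.80 and 9.07 on DBP replicates 1 to 4 and 4.48 to 4.78 on the vehicle arrays. The part of this signal in the differences below was not tested, and the values for DBP replicates 1 and 2 alone are therefore also given for Ass1, Arg1, Gatm, Gamt, Odc1, Ckb, Got1, Slc7a7 and Prmt8. DBP replicates 1 and 2 in turn stood apart in some erythroid markers, given with the cell type markers below.

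In these data Ass1 and the main probe set of Gatm were higher on all 4 DBP arrays than on any vehicle array, and Arg1 was lower on all 4. Ass1 was 1.94-fold and Gatm 1.62-fold higher in DBP testes, and Arg1 was 1.5-fold lower. Of the 10 genes, 2 were called, Ass1 and Gatm, both higher, where a call means an adjusted p under 0.05 in limma's fit over all 31042 probe sets (Benjamini-Hochberg). The fit called 1.07% of all probe sets and 1.22% of all genes, 0.598% higher and 0.626% lower. Groups did not overlap for 5 of the 10, 4 higher and 1 lower in DBP testes, where this held for 12.9% of all genes, 7.31% higher and 5.56% lower. The median difference over the 10 genes was 0.06, and over all genes it was 0.02. Nothing is read from these counts, since the same contrast chose the genes.

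**Figure D1:**
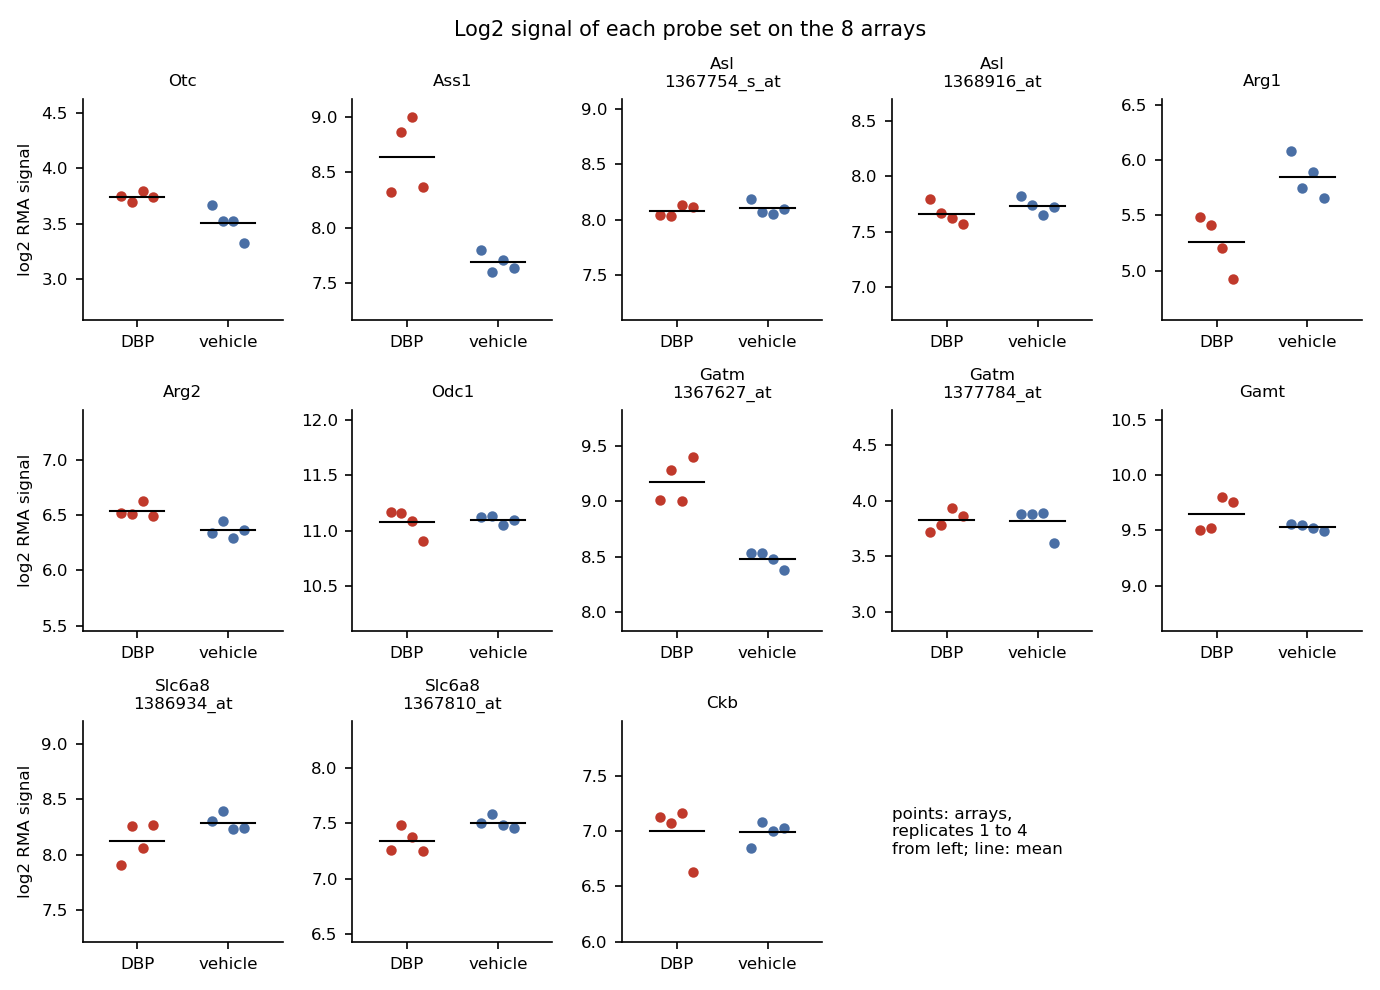
Log2 RMA signal (vertical axis, spanning 2 log2 units in every panel) of the 13 probe sets on the 4 DBP arrays (left, red) and the 4 vehicle arrays (right, blue), with each group's mean as a line. Ass1 and Gatm 1367627_at stand higher on all DBP arrays and Arg1 lower, while both probe sets of Asl, Odc1 and Ckb overlap between the groups.

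Because Ass1 and Gatm were higher together, the stretch around the start of each gene is shown, from RefSeq on the GRCr8 assembly, 250 bases before the start to 50 after it. The array files name no genome build. Ass1 is read from chr3:35149480-35149779 on the plus strand, and Gatm from chr3:130129044-130129343 on the minus strand. Capitals mark the matches to 7 short motifs searched on both strands.
Ass1: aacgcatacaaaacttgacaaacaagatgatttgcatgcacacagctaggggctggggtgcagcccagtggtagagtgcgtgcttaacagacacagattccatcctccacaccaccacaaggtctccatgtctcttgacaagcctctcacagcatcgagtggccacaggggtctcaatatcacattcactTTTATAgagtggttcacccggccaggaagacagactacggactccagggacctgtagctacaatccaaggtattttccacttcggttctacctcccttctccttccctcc
Gatm: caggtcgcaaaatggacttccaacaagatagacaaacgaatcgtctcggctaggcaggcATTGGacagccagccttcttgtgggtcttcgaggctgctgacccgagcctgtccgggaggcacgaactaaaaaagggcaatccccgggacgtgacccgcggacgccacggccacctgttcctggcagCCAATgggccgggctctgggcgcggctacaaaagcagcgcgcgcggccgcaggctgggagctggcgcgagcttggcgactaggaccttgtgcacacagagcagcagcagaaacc
The motifs were the E-box CACGTG, the GC box GGGCGG, the CCAAT box CCAAT, the TATA box TATAAA, the cyclic AMP response element TGACGTCA, the NBRE AAAGGTCA and the C/EBP core TTGCNNAA. The Ass1 stretch held 1 match, a TATA box in reverse orientation that begins 60 bases before the start. The Gatm stretch held 2 CCAAT boxes, beginning 191 bases before the start in reverse orientation and 64 bases before it. No 2 matches overlapped. Of 33469 rat promoters of this length 14.2% held the TATA box and 37.5% the CCAAT box. The pair of stretches had no searched motif in common. The E-box was held by 6.42% of them, the GC box by 33.1%, the cyclic AMP response element by 1.83%, the NBRE by 1.43% and the C/EBP core by 10.6%. The table gave a promoter for 8 of the 10 genes, and of these 4 held a GC box (Asl, Gamt, Odc1 and Slc6a8). GC content was 51.0% for Ass1 and 63.0% for Gatm, beside a median of 51.7% over all promoters. A match is a run of letters and not a bound site.

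The enzymes of the urea cycle did not move together. Ass1 read 8.32, 8.86, 9.00 and 8.37 on DBP replicates 1 to 4, and 7.80, 7.60, 7.71 and 7.63 on vehicle replicates 1 to 4. The lowest DBP array stood 0.52 above the highest vehicle array. The DBP values fell into a higher pair, replicates 2 and 3, and a lower pair, replicates 1 and 4, and their range of 0.68 exceeded the 0.20 among vehicle arrays. Ass1 averaged 8.64 ± 0.34 in DBP testes and 7.69 ± 0.09 in vehicle testes (SD, n = 4 each), a log2 difference of 0.95 ± 0.14 (SE). In DBP replicates 1 and 2 alone the difference was 0.91, and in DBP replicates 3 and 4 alone it was 1.00. As whole testes were used, a larger share of cells with the transcript and more transcript per cell cannot be told apart, here and below. Ass1 was no longer called without vehicle replicate 2, 3 or 4, although the difference then stayed between 0.92 and 0.96, nor with unmoderated t statistics.

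Asl, the partner of Ass1 in arginine synthesis, has a pair of probe sets in the gene table, and they need separate reading. The accession behind 1367754_s_at belongs in RefSeq to Hnrnpab, an RNA-binding protein, and only that behind 1368916_at to Asl. Probe set 1368916_at read 7.79, 7.67, 7.62 and 7.57 in DBP replicates 1 to 4 and 7.82, 7.74, 7.65 and 7.72 in vehicle replicates 1 to 4. The groups overlapped, and the difference was -0.07 ± 0.07 (SE), with a 95% confidence interval of -0.22 to 0.08. Probe set 1367754_s_at gave -0.02 ± 0.06 (SE), and its DBP values of 8.03 to 8.13 lay within the vehicle range of 8.05 to 8.19 but for DBP replicates 1 and 2, at 8.04 and 8.03. The upper end of the interval for Asl by the probe set of its own accession lay far below the difference of 0.95 seen for Ass1, although the contrast between the pair of genes was not tested.

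The arginases, which split arginine into ornithine and urea, had differences of opposite sign, neither of them called. Arg1, the cytosolic arginase abundant in liver and in some macrophages, read 5.49, 5.41, 5.21 and 4.93 on DBP replicates 1 to 4, and 6.08, 5.75, 5.89 and 5.66 on vehicle replicates 1 to 4. Every DBP array was below every vehicle array, by at least 0.17. The means were 5.26 ± 0.25 in DBP testes and 5.85 ± 0.18 in vehicle testes (SD, n = 4 each), a difference of -0.58 ± 0.13 (SE) that was not called. DBP replicates 1 and 2 alone gave -0.40 and DBP replicates 3 and 4 alone gave -0.78, so its size depends on the pair of arrays that stood apart. Leaving out 1 array at a time gave -0.66 to -0.47 and never called it. It was called in 3 of its 20 alternatives, among them a trended and robust variance prior and DBP replicates 3 and 4 alone. The fit with DBP replicates 3 and 4 alone called 4129 of 31042 probe sets, against 331 with all arrays. Arg2, the mitochondrial arginase, read 6.52, 6.51, 6.63 and 6.49 in DBP testes and 6.34, 6.45, 6.29 and 6.37 in vehicle testes. The difference of 0.18 ± 0.06 (SE) was small, and only 0.04 separated the groups. Otc, the mitochondrial enzyme that makes citrulline from ornithine, read 3.75, 3.69, 3.79 and 3.74 in DBP testes and 3.67, 3.52, 3.52 and 3.32 in vehicle testes. The groups stood 0.02 apart, at a signal that only 11.6% of probe sets did not exceed, so this difference of 0.24 ± 0.07 (SE) lies at the dim end of the array.

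Odc1, the first enzyme of polyamine synthesis, read 11.17, 11.16, 11.09 and 10.91 in DBP testes and 11.12, 11.13, 11.05 and 11.10 in vehicle testes. The groups overlapped, with DBP replicates 1 and 2 the highest arrays and DBP replicate 4 the lowest. The difference was -0.02 ± 0.07 (SE), with a 95% confidence interval of -0.17 to 0.13, and DBP replicates 1 and 2 alone gave 0.06.

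Creatine is made from arginine and glycine by Gatm, finished by Gamt, which adds a methyl group, carried into cells by Slc6a8 and used by creatine kinases such as Ckb. Of these, the first enzyme stood out. Gatm, by probe set 1367627_at, read 9.01, 9.28, 9.00 and 9.40 on DBP replicates 1 to 4, and 8.53, 8.53, 8.48 and 8.38 on vehicle replicates 1 to 4. The groups were 0.47 apart. Means were 9.17 ± 0.20 in DBP testes and 8.48 ± 0.07 in vehicle testes (SD, n = 4 each), a difference of 0.69 ± 0.09 (SE). DBP replicates 1 and 2 alone gave 0.67 and DBP replicates 3 and 4 alone 0.72, and leaving out any 1 array gave 0.62 to 0.75 and kept it called. Its call ended with unmoderated t statistics. The arrays with the highest Gatm, DBP replicates 2 and 4, were not those with the highest Ass1, DBP replicates 2 and 3. A second probe set, 1377784_at, read 3.72 to 3.94 in DBP testes and 3.62 to 3.89 in vehicle testes, with a difference of 0.01 ± 0.08 (SE). It lies at a signal that only 15.8% of probe sets did not exceed, and averaging it with the first gives a difference of 0.35.

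Gamt, the second enzyme of creatine synthesis, read 9.50, 9.52, 9.80 and 9.76 on DBP replicates 1 to 4 and 9.56, 9.55, 9.52 and 9.49 on vehicle replicates 1 to 4. Only DBP replicates 3 and 4 were above the vehicle arrays. The difference was 0.12 ± 0.08 (SE) over all arrays, -0.02 for DBP replicates 1 and 2 and 0.25 for DBP replicates 3 and 4, so it was seen in the arrays with low spike-in and high spermatid-gene signal alone. Slc6a8, the creatine transporter, was lower on average by both of its probe sets. Probe set 1386934_at read 7.91, 8.26, 8.06 and 8.27 in DBP testes and 8.30, 8.39, 8.23 and 8.24 in vehicle testes, and 1367810_at read 7.26, 7.48, 7.38 and 7.25 in DBP testes and 7.50, 7.58, 7.48 and 7.46 in vehicle testes. The differences were -0.17 ± 0.09 and -0.16 ± 0.07 (SE), the groups overlapped in each, and neither was called. Ckb, the brain-type creatine kinase, read 7.13, 7.07, 7.16 and 6.63 in DBP testes and 6.85, 7.08, 7.00 and 7.03 in vehicle testes. Its difference was 0.01 ± 0.11 (SE), 0.11 for DBP replicates 1 and 2 alone and 0.13 without DBP replicate 4, the low array.

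**Figure D2:**
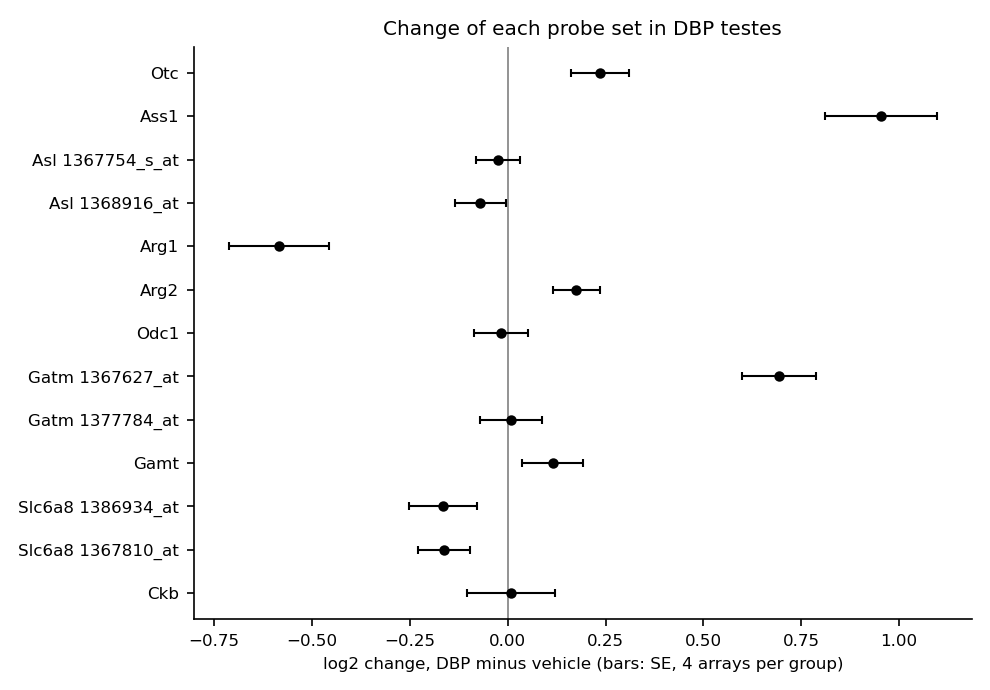
Log2 difference, DBP minus vehicle (horizontal axis), of each probe set with its standard error from limma, 4 arrays per group. Ass1 at 0.95 and Gatm 1367627_at at 0.69 lie farthest to the right and Arg1 at -0.58 farthest to the left, while Asl, Odc1, Ckb and the dim Gatm probe set lie at -0.07 to 0.01.

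The network around the 10 genes was followed through 8 lists of related genes, which held 71 other genes, 64 of them measured. Got1, the cytosolic aspartate aminotransferase, rose 1.51-fold in DBP testes. Slc7a7, a subunit of the y+L transporter that exchanges arginine and lysine for neutral amino acids, and Prmt8, a membrane-bound arginine methyltransferase best known from brain, fell. These 3 were called, 1 higher and 2 lower, 4.69% of the 64 against 1.22% of all genes. The median difference over the 64 was 0.02, the same as over all genes. At an unadjusted p under 0.05 there were 11 of the 64, and 19.1% of all genes. The lists were chosen with earlier results of these data known, so nothing is read from these shares.

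Got1 read 8.50, 8.59, 8.47 and 8.68 in DBP testes and 8.01, 8.04, 7.91 and 7.92 in vehicle testes. The groups were 0.43 apart, with means of 8.56 ± 0.09 in DBP testes and 7.97 ± 0.06 in vehicle testes (SD, n = 4 each) and a difference of 0.59 ± 0.07 (SE; limma adjusted p = 0.00364). It was called under every one of its 21 alternatives, with differences of 0.55 to 0.63 and adjusted p of 0.000944 to 0.0393, and DBP replicates 1 and 2 alone gave 0.57. Got2, its mitochondrial counterpart, named after its value was seen, gave -0.05 (adjusted p = 0.668 in limma), and Asns, the asparagine synthetase that consumes aspartate, gave 0.19 ± 0.07 (SE; adjusted p = 0.185). Of the 6 genes listed under aspartate supply 1 rose, 0 fell and 5 did not pass.

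Slc7a7 read 6.45, 6.38, 6.46 and 6.40 in DBP testes and 6.92, 6.77, 6.75 and 6.82 in vehicle testes. The DBP arrays lay within 0.08 of each other and 0.29 below the lowest vehicle array. Slc7a7 changed by -0.39 ± 0.06 (SE; limma adjusted p = 0.0132), and its call ended without vehicle replicate 1 or 4 (adjusted p = 0.0516 and 0.0572, in a range of 0.0071 to 0.0572 over its alternatives). DBP replicates 1 and 2 alone gave -0.40. Among the 8 genes of cationic amino acid transport 0 rose, 1 fell and 7 did not pass. Slc7a3, a cationic amino acid transporter, gave 0.28 (adjusted p = 0.168). Named after their values were seen, Slc3a2, the heavy chain that pairs with Slc7a7, gave -0.11 (adjusted p = 0.343), and Slc7a1, a widely expressed arginine transporter, gave -0.04 (0.834).

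Prmt8 read 4.38, 4.55, 4.30 and 4.56 in DBP testes and 5.13, 4.98, 5.34 and 5.04 in vehicle testes, a difference of -0.68 ± 0.09 (SE; limma adjusted p = 0.00895) at a low signal. DBP replicates 1 and 2 alone gave -0.66. The groups were 0.42 apart, and of its 19 alternatives the call ended with unmoderated t statistics alone (adjusted p = 0.1). The signal filters are not among the 19, since they left its probe set out. Of 7 measured arginine methyltransferases 0 rose, 1 fell and 6 did not pass, among them Prmt6 (-0.19, adjusted p = 0.353).

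None of the other lists had a called gene outside the 10. Of 11 genes of nitric oxide synthesis and its control 0 passed in limma and 3 had an unadjusted p under 0.05. Gchfr, a feedback regulator of the enzyme that begins tetrahydrobiopterin synthesis, gave 0.34 ± 0.07 (SE; adjusted p = 0.056), with groups that did not overlap, and Ddah2, which clears methylated arginines, gave -0.18 (adjusted p = 0.195). Gchfr was called in 5 of its 20 alternatives (adjusted p of 0.0138 to 0.179). The synthases Nos1, Nos2 and Nos3, named after their values were seen, gave 0.07, 0.09 and 0.02. Of 7 genes of ornithine, proline and glutamate 0 passed in limma and 1 had an unadjusted p under 0.05. Prodh, which starts proline breakdown, gave -0.23 (adjusted p = 0.12), and Glud1, glutamate dehydrogenase, -0.12 (0.347). Of 17 polyamine genes 0 passed in limma and 1 had an unadjusted p under 0.05, Paox, a polyamine oxidase (0.12, adjusted p = 0.253). Eif5a, the protein that carries the spermidine-derived hypusine, gave 0.12 (adjusted p = 0.293). In the urea cycle list 1 of 10 measured genes was called, Ass1, and the aspartate/glutamate carriers Slc25a13 (0.09, adjusted p = 0.51) and Slc25a12 (-0.11, 0.533) were not. In the creatine list 1 of 8 was called, Gatm. Ckmt1, a mitochondrial creatine kinase, gave 0.19 (adjusted p = 0.17) and Ckm, the muscle creatine kinase, 0.22 (0.304), both at low signals.

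**Figure D3:**
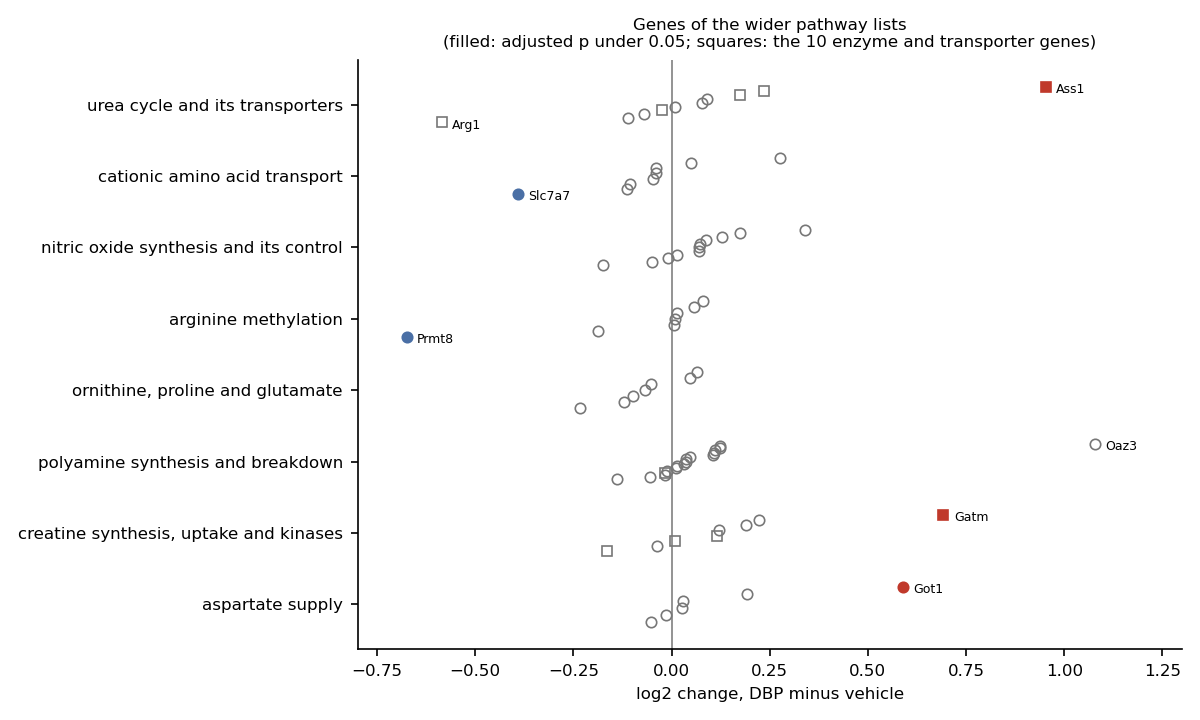
Log2 difference, DBP minus vehicle (horizontal axis), of every measured gene in 8 lists (rows), with the 10 enzyme and transporter genes as squares and called genes filled (red higher, blue lower). Called genes were Ass1, Gatm, Got1, Slc7a7 and Prmt8, and Oaz3 at 1.08 is uncalled, its difference resting on DBP replicate 4.

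Oaz3, the antizyme that restrains ornithine decarboxylase in spermatids, had the largest difference of the 64 and was named after its value was seen. It read 4.02, 3.80, 4.45 and 7.60 on DBP replicates 1 to 4 and 3.93, 3.78, 3.91 and 3.94 on vehicle replicates 1 to 4. DBP replicate 4 was far above the vehicle arrays, DBP replicate 3 less so, and DBP replicate 1 just above them, while DBP replicate 2 lay within their range. Oaz3 was not called (adjusted p = 0.413 in limma).

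The 5 genes whose values were most like those of Ass1 were sought among the 14207 genes outside the 10, by Pearson's r over the 8 arrays. They were Akr1c19, an aldo-keto reductase (r = 0.979), Endou, an endoribonuclease (0.979), Them5, a mitochondrial thioesterase (0.975), Gpt2, the mitochondrial alanine aminotransferase (0.963), and Fads2, the delta-6 fatty acid desaturase (0.963). These r are descriptions over 8 points that share their arrays and fall into 2 groups, so a gene that differs between the groups scores high. All 5 were also higher on each DBP array than on any vehicle array, by 0.10 to 0.40 at the nearest pair. DBP replicates 2 and 3 were the highest arrays of each, as in Ass1. A search by r favours both traits, so neither is further support. Akr1c19 and Endou were called, Endou at a dim signal. Them5, Gpt2 and Fads2 were not (adjusted p = 0.117, 0.0516 and 0.0779 in limma). Gpt2 read 8.32, 8.52, 8.42 and 8.25 in DBP testes and 8.02 to 8.10 in vehicle testes. Got1 was not among them, and the other 9 enzyme and transporter genes were not part of the search.

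**Figure D4:**
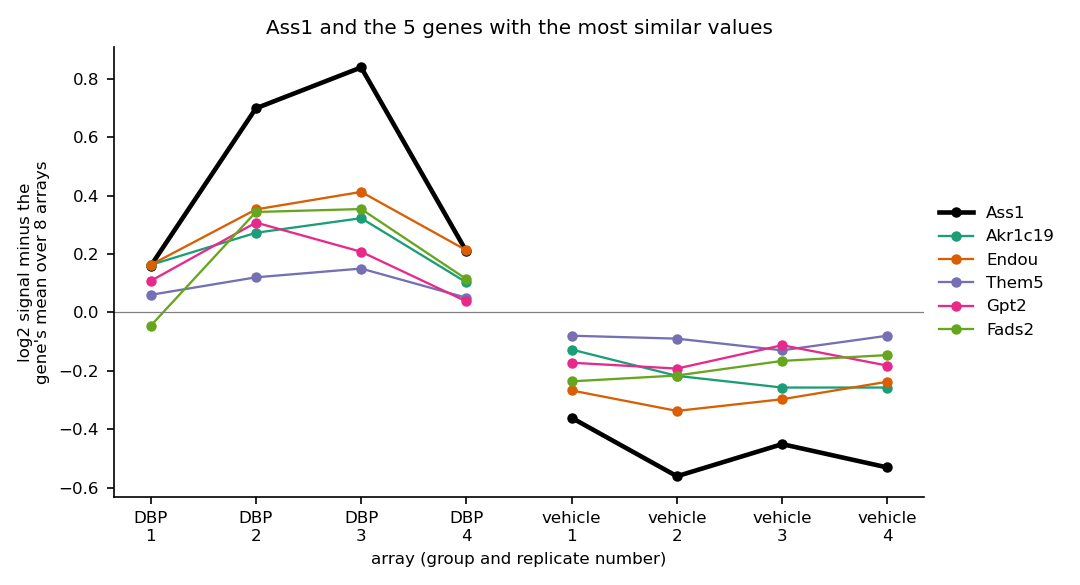
Log2 signal of Ass1 (black) and the 5 genes most like it, each minus its own mean over the 8 arrays (vertical axis), for the 4 DBP arrays (left) and the 4 vehicle arrays (right). Lines only join values of 1 gene within a group, and DBP replicates 2 and 3 are the highest arrays of each gene shown.

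Of 52 measured markers of cell types in or near the testis, in 10 lists, 2 were called, Plvap of endothelium higher and Mrap of adrenal cortex lower. Of all genes 1.22% were called. Summed over 6 Leydig cell markers, the log2 level was 14.40 to 14.55 in DBP testes and 14.47 to 14.53 in vehicle testes. Over 5 Sertoli cell markers it was 13.55 to 13.76 in DBP testes and 13.60 to 13.70 in vehicle testes. Single markers, named after their values were seen, differed in both directions with groups that did not overlap, which held for 12.9% of all genes. Insl3 (-0.34) and Lhcgr (-0.21) of Leydig cells and Inhbb (-0.35) of Sertoli cells were lower in DBP testes. Hsd3b1 (0.17) of Leydig cells and Aard (0.24) of Sertoli cells were higher. So were Fcer1g (0.27) of macrophages, Hba-a3 (0.28) of erythroid cells and Apoa1 (0.14) of hepatocytes, and none of these single markers was called. The summed level did not overlap between the groups for 3 germ cell markers (9.53 to 9.63 in DBP, 9.28 to 9.48 in vehicle), where Sycp3, the brightest, gave 0.31 and Kit and Nanos3 gave -0.18 and -0.06, none of them called. Nor did it overlap for 3 adrenal cortex markers (7.30 to 7.76 in DBP, 8.01 to 8.11 in vehicle), where Mrap gave -0.60 and Cyp21a1 and Cyp11b1, both uncalled with overlapping groups, gave 0.03 and -0.09. Hepatocytes and kidney hold much Ass1, Arg1 or Gatm. Over 7 hepatocyte markers the summed level was 7.67 to 7.89 in DBP testes and 7.57 to 7.68 in vehicle testes, with 0 of 7 called, 1 at an unadjusted p under 0.05 in limma and albumin at 4.44 in DBP and 4.36 in vehicle. Over 5 kidney markers it was 6.61 to 6.84 in DBP testes and 6.50 to 6.62 in vehicle testes, with 0 of 5 called and 0 at an unadjusted p under 0.05. Higher in DBP testes were 7 of 7 hepatocyte and 4 of 5 kidney markers. Their median differences were 0.135 and 0.11, against 0.02 over all genes. Of erythroid markers 6 of 6 were higher on average, with a median difference of 0.30 and 0 called. In DBP replicates 1 and 2 alone Slc4a1 gave 1.26, Ahsp 0.78, Alas2 0.70, Hemgn 0.63, Hba-a3 0.32 and Hbb 0.15. In DBP replicates 3 and 4 alone they gave, in that order, -0.35, -0.04, -0.15, 0.00, 0.235 and -0.02. For Slc4a1, Ahsp, Alas2 and Hemgn DBP replicates 1 and 2 were the highest of the 8 arrays. The ranges overlapped for endothelium (10.09 to 10.29 in DBP, 10.12 to 10.15 in vehicle), macrophages (9.41 to 9.75 in DBP, 9.47 to 9.58 in vehicle), erythroid cells (14.28 to 14.56 in DBP, 14.24 to 14.42 in vehicle) and skeletal muscle (7.76 to 7.94 in DBP, 7.71 to 7.83 in vehicle). No marker is at 0 on this scale, and the part of any of these cell types in the differences of Ass1, Gatm and Arg1 was not tested.

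**Figure D5:**
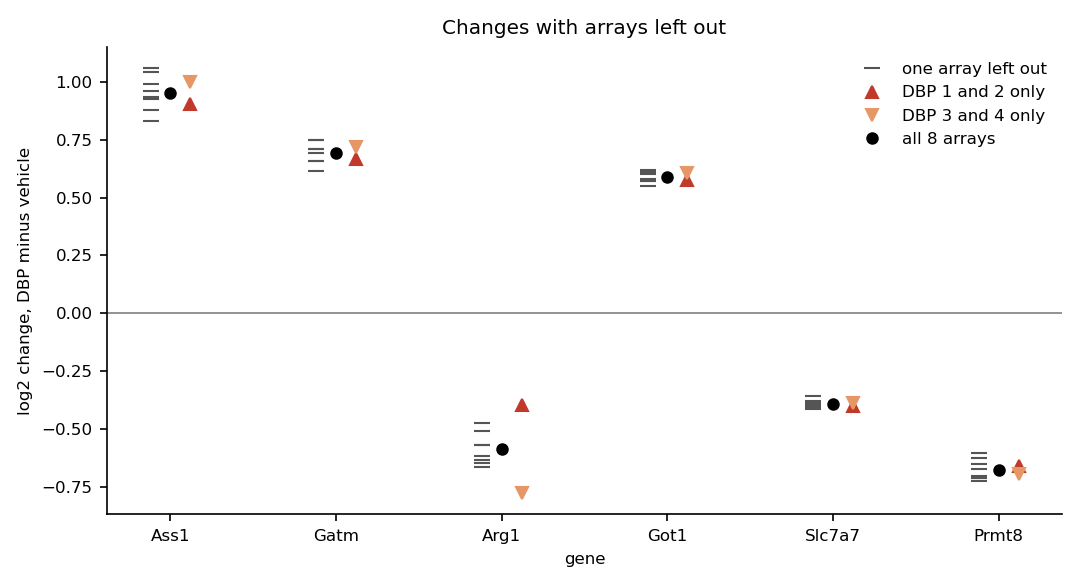
Log2 difference, DBP minus vehicle (vertical axis), of 6 genes with all 8 arrays (black circles), with each array left out in turn (dashes), and with DBP replicates 1 and 2 or 3 and 4 alone against all vehicle arrays (triangles). Arg1 moved most, between -0.40 and -0.78 for the pairs of DBP arrays, while Slc7a7 stayed between -0.41 and -0.36.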

How the data were processed

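The authors deposited 1 table of log2 values, normalized and summarised by RMA according to the submitters' processing notes. Its version and a genome build are not given in the sources used here, and raw arrays were not analysed here. RMA summarises the probes of a set on a common scale, so it compresses dim signals and gives no detection call. Of 31099 probe sets 57 controls were set aside. Single symbols were available for 20826, several for 436 and none for 9780, and RefSeq gene identifiers updated them. The probe set with the highest mean represented a gene, and no signal filter was applied.

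DBP was compared with vehicle by limma 3.58.1 (R 4.3.3) over all 31042 probe sets, 2-sided, with Benjamini-Hochberg adjustment and a threshold of 0.05. Each adjusted p comes from this fit, or from an alternative where the text says so. The procedure was tested on simulated data. Tables used Python 3.11.15 and pandas 2.3.3, figures matplotlib 3.10.9. The number of arrays limits the precision. Array pairs with identical values numbered 0.

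Members and lists were chosen with earlier results of these data known. Named outside the 10 genes were list genes past the threshold, the 2 with the smallest p in each list and the 5 genes most like Ass1; others are marked. Marker lists covered Leydig, Sertoli and germ cells, endothelium, macrophages, erythroid cells, skeletal muscle, hepatocytes, kidney and adrenal cortex. Alternatives covered scaling, signal filters, variance priors, array weights, covariates, left-out arrays and averaging probe sets. Same-numbered arrays of the groups had deviations from their group means that correlated at 0.11, -0.08, 0.10 and -0.02, so the numbers were not taken as pairs.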

Additional observations from a re-analysis of the deposited data

Results flagged for a closer look

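Of 76 groups of 4 arrays examined for a value far from the rest, 2 had one, where chance gives about 1 in 20. The groups included the spermatid genes Oaz3, Prm1, Tnp1 and Odf1, taken after DBP replicate 4 had been seen to stand apart. None of these was flagged. The rule looks for a single far value, and DBP replicate 3 was raised in them too. The count is therefore not read as an absence of outlying arrays. Ckb read 6.63 on DBP replicate 4, against 7.07 to 7.16 on the other DBP arrays. The dim Gatm probe set 1377784_at read 3.62 on vehicle replicate 4, against 3.88 to 3.89 on the other vehicle arrays.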

How the results depend on the processing

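The count of called genes among the 10 was 2, Ass1 and Gatm, and it was 4 in DBP replicates 3 and 4 against vehicle (Arg1 and Gamt added), 3 with a trended and robust prior (Arg1 added), 0 of 10 with unmoderated t statistics (5 had an unadjusted p under 0.05) and 1 to 2 with 1 array left out, Ass1 being lost without vehicle replicate 2, 3 or 4. Among the 64 list genes the count of 3 became 6 in DBP replicates 3 and 4 and 2 to 4 with 1 array left out. Over all probe sets the count of 331 (130 higher, 201 lower) became 577 in DBP replicates 1 and 2 against vehicle, 4129 in DBP replicates 3 and 4, 74 with unmoderated t statistics and 82 to 606 with 1 array left out: 114, 122, 82 and 118 without vehicle replicates 1 to 4, and 606 and 220 without DBP replicates 2 and 3. Shifting arrays to the same median gave 158 higher and 159 lower of 317. With the replicate number as a block 175 probe sets were called, Arg1 was gained and Slc7a7 lost (adjusted p = 0.0509). Slc25a12, not called, turned from -0.11 to 0.015 in DBP replicates 1 and 2 and, equally by construction, with the low spike-in level as a term. Leaving out probe sets of another gene's accession, chosen after seeing the data, left the counts at 2 and 3. The causes were not tested.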

Other observations

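Other genes known from spermatids, from the list made after the data were seen, were read on DBP replicates 1 to 4 and on the vehicle arrays. Tnp1, a transition protein, read 5.64, 5.49, 6.16 and 8.52 in DBP testes and 5.38 to 5.68 in vehicle testes. Hils1, a spermatid linker histone, read 3.75, 3.71, 3.91 and 7.11 in DBP testes and 3.52 to 3.66 in vehicle testes. In each of them DBP replicate 4 was highest and DBP replicate 3 next, while DBP replicates 1 and 2 lay close to the vehicle arrays.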
